A study of Mus musculus with 40 samples.

Results

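The 4 entries that carry the name miR-486 in the table of mature miRNAs (mmu-miR-486a-5p, mmu-miR-486a-3p, mmu-miR-486b-5p and mmu-miR-486b-3p, written below without the prefix for the mouse) were followed across 4 mouse tissues. They were chosen by name, 4 of 1894 entries, and all 4 passed the filter on low counts in every comparison below. The tissues were brown fat, gastrocnemius muscle, liver and hypothalamus, numbered here as from 10 mice. Each tissue gave 5 libraries of unselected small RNA (input) and 5 of the streptavidin-bound fraction (IP), 8 groups in all. Each library of a group had a different mouse number.

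Every group had the same genotype and treatment. The mice were UCP1;UPRT males, the cross of Tg(CAG-GFP,-Uprt)985Cdoe/J with Tg(Ucp1-cre)1Evdr/J, aged 8 to 12 weeks and fed standard chow. All received 4-thiouracil (4TU) at 50 mg/kg into the peritoneum, 4 doses spaced 48 h apart. UPRT is an enzyme that lets cells build 4TU into new RNA, and Cre driven by the Ucp1 promoter switches it on in brown fat cells. Thiol-bearing RNA was then biotinylated and pulled down, so the question put to the IP is which miRNAs of a tissue carry the label. No group without 4TU or without Cre was analysed here, so the IP level of RNA without label is unknown. By library name pool 1 held every input and pool 2 every IP, and the names do not say what a pool was. A difference between pools and one between IP and input therefore cannot be told apart.

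MiRNAs are short RNAs that guide Argonaute proteins to messenger RNAs through a seed near their 5′ end. MiR-486 lies within Ank1, the gene of ankyrin-1, which anchors the membrane skeleton of red blood cells. It is known as abundant in red blood cells and in striated muscle. The miRNAs of blood and of muscle are therefore given beside it.

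In the GENCODE M21 annotation of GRCm38 (mm10), Mir486 occupies chr8:23142555-23142682 on the plus strand. Mir3107, which RefSeq lists as the miR-486b gene, occupies chr8:23142573-23142662 on the minus strand and lies wholly inside Mir486. Both sit in introns of Ank1 (chr8:22974844-23150497, plus strand). Of the 17 annotated Ank1 transcripts 15 span them, and 0 of these have an exon there. The antisense transcript Gm15816 (chr8:23138794-23149585, minus strand) also spans both within an intron.

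The 4 names held only 2 separate measurements. The expected counts of mmu-miR-486a-5p and mmu-miR-486b-3p were identical in 40 of 40 libraries. Those of mmu-miR-486b-5p and mmu-miR-486a-3p were identical in 38 of 40, with a largest difference of 0.33 counts. Between the pairs, the ratio of miR-486b-5p to miR-486a-5p ran from 1.00 to 1.49 with a median of 1.22. How strand and multiply matching reads were handled is not stated in the labels, so arms and strands cannot be told apart, and reads may be split between the overlapping hairpins. Results below are given for miR-486a-5p, with miR-486b-5p where it differs.

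The miRNAs set beside miR-486 have the following mature sequences in RefSeq (GRCm38.p6), with the seed, bases 2 to 8, in capitals. MiR-451a and miR-144-3p are red blood cell miRNAs from neighbouring hairpins at chr11:78073186-78073207 and chr11:78073047-78073066. MiR-206-3p and miR-133b-3p are muscle miRNAs at chr1:20679055-20679076 and chr1:20682834-20682855. MiR-196a-5p, whose genes lie in Hox clusters at chr11:96265187-96265208 and chr15:102973365-102973386, was the entry most like miR-486a-5p in the IPs. All lie on the plus strand, and no seed is shared between the 5.
mmu-miR-451a: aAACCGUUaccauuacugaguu
mmu-miR-144-3p: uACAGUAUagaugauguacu
mmu-miR-206-3p: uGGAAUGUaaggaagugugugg
mmu-miR-133b-3p: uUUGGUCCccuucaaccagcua
mmu-miR-196a-5p: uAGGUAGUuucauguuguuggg

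Library totals ran from 153036 to 5562487 counts in the inputs and from 11928 to 921297 in the IPs. Levels are counts per 1000000 counted miRNA reads (CPM). The tissues carried their defining miRNAs: miR-122-5p made up 39.9% of liver input counts, miR-1a-3p 61.2% of muscle input counts, and miR-9-5p 9.06% of hypothalamus input counts. MiR-193b-3p was at 225 to 1283 CPM in brown fat inputs (median 356) and at most 13.5 CPM on average in the inputs of the other tissues. MiR-1a-3p was also 14.4% of brown fat input counts, from 6.40% in replicate 2 to 27.99% in replicate 1. Hypothalamus input replicate 4 stood apart, with 153036 counts, 17.9% miR-1a-3p and 1.71% miR-122-5p, where the other 4 had 0.147% to 0.247% miR-1a-3p. Liver IP replicate 4 held 11928 counts with 1.57% miR-1a-3p, where the other 4 had 0.0430% to 0.127%.

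In the inputs, miR-486a-5p was highest in muscle and brown fat and lowest in liver. The 5 muscle inputs held 346, 429, 262, 131 and 135 CPM (mean 260.7 ± 130.5, SD, n = 5). The 5 brown fat inputs held 228, 130, 174, 173 and 206 CPM (182 ± 37.5). Muscle and brown fat overlapped: 2 of the muscle libraries were among the lowest of the 10. In the hypothalamus the values were 58.9, 63.3, 40.9, 102 and 27.8 CPM (58.7 ± 28.3), all below every brown fat and muscle input. The highest of them, 102 CPM, came from replicate 4, the library with muscle and liver miRNAs, whose part in that value was not tested. Liver inputs held 17.7, 11.7, 4.66, 14.5 and 20.6 CPM (13.8 ± 6.11), from 63 counts over the group (exact 95% Poisson interval 48.4 to 80.6), and none reached the lowest hypothalamus value. Intervals on counts take the summed expected counts, rounded to a whole number, as if they were independent reads. They cover counting error only, since these are PCR reads without molecular identifiers. In bulk tissue fewer cells of a type and less RNA per cell cannot be told apart.

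The tests between tissues gave muscle the top place and left liver and hypothalamus unresolved. With edgeR's quasi-likelihood test and TMM scaling, muscle exceeded hypothalamus by a log2 difference of 4.85 (SE 0.49, Benjamini-Hochberg adjusted p = 1.2e-08), a comparison in which 83.1% of the entries tested were called, and by 2.23 (adjusted p = 1.9e-05) with total count scaling. Liver was below muscle by a log2 difference of -5.18 (SE 0.50, adjusted p = 3.52e-08; 54.7% of entries called). Brown fat exceeded liver by 2.53 (SE 0.47, adjusted p = 0.000161; 45.9% called) and hypothalamus by 2.20 (SE 0.45, adjusted p = 0.00012; 84% called). Brown fat minus muscle was -2.65 (SE 0.43, adjusted p = 5.34e-05; 40.1% called). That last call was lost with the total count as the only scaling, where the difference was -0.51 (adjusted p = 0.191). Liver minus hypothalamus was -0.33 (SE 0.48, adjusted p = 0.522; 80.9% called), and -2.02 (adjusted p = 0.000161) with total count scaling.

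**Figure D1:**
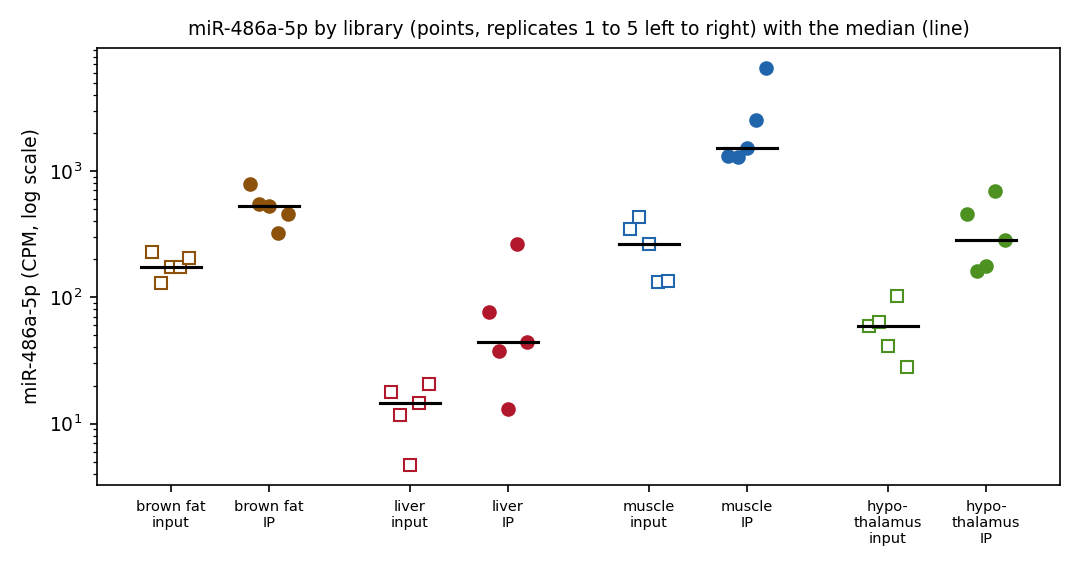
miR-486a-5p in each of the 40 libraries, in CPM on a log axis, with open squares for inputs, filled circles for IPs and a line at the median of 5. In brown fat, muscle and hypothalamus every IP lies above every input; in liver 1 IP, at 13.1 CPM, lies among the inputs.

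In every tissue miR-486 was higher in the IP than in the input. Brown fat IPs held 789, 552, 531, 320 and 458 CPM (529.7 ± 170.9, SD, n = 5), and the lowest of them was above the highest input. The mean CPM was 2.91 times that of the inputs. Muscle IPs held 1312, 1298, 1507, 2549 and 6565 CPM (2646 ± 2251), 10.2 times the inputs by the mean and 5.75 times by the median. The highest of them, replicate 5, moves the mean away from the median. Hypothalamus IPs held 459, 161, 177, 698 and 282 CPM (355 ± 225), 6.06 times the inputs by the mean and 4.78 times by the median, with no overlap. Liver IPs held 76.0, 37.6, 13.1, 262 and 43.9 CPM (86.4 ± 100.4), and 4 of 5 lay above all inputs. The liver IP values rest on 33 counts over the group (exact 95% Poisson interval 22.7 to 46.3), of which the 262 CPM of replicate 4 were 3.12 counts. The median fold in liver was 3.02, against 6.25 for the mean.

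Between libraries paired by the mouse number used here, the direction was the same throughout. The titles and library names do not state these numbers. Input and IP of 19 pairs shared a mouse number, and the IP had the higher CPM in 19 of 19, by 1.85 to 48.7 times (median 4.25). In brown fat, muscle and hypothalamus every IP lay above every input, so any pairing would give this direction there. The range was 1.85 to 4.25 in brown fat, 2.55 to 10.1 in hypothalamus, 2.13 to 17.98 in liver and 3.03 to 48.7 in muscle. The 2 highest muscle folds, 19.4 and 48.7, belonged to mouse numbers 8 and 9. The libraries with these numbers were the lowest muscle inputs (131 and 135 CPM) and the highest muscle IPs (2549 and 6565 CPM).

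All 4 entries (mmu-miR-486a-5p, mmu-miR-486b-3p, mmu-miR-486b-5p and mmu-miR-486a-3p) were called higher in the IP in all 4 tissues by edgeR's quasi-likelihood test. The log2 change of miR-486a-5p was 2.63 in brown fat (SE 0.33, adjusted p = 1.41e-06), 3.20 in liver (SE 0.44, adjusted p = 4.45e-07), 3.77 in muscle (SE 0.37, adjusted p = 2.01e-09) and 3.22 in hypothalamus (SE 0.56, adjusted p = 0.000212). MiR-486b-5p changed by 2.69, 3.03, 3.83 and 3.16. Most entries were called in one direction or the other: 80% in brown fat, 74.5% in liver, 85.1% in muscle and 75.5% in hypothalamus. The share called higher was 36.7% in brown fat, 28.5% in liver, 28.7% in muscle and 28.2% in hypothalamus. MiR-486a-5p ranked 42 of 305, 19 of 200, 29 of 268 and 31 of 273 by the size of its rise in these tissues, so it was among the larger rises and not at the top. Without the doubted libraries the calls held, at 3.10 in liver without IP replicate 4, 3.65 in muscle without IP replicate 5, and 3.66 in hypothalamus without input replicate 4.

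The size of the change depends on the scaling. The median log2 change of all entries tested was -0.34 in brown fat, -0.78 in liver, -1.41 in muscle and -1.04 in hypothalamus with TMM. With total count scaling these medians were -1.44, -2.40, -2.29 and -1.84, and miR-486a-5p rose by 1.54, 1.64, 3.34 and 2.61. Relative to the median entry, miR-486a-5p was higher by 2.97 in brown fat, 3.99 in liver, 5.18 in muscle and 4.26 in hypothalamus with TMM. Over the 11 settings tried these distances ran from 2.94 to 3.24, 3.85 to 4.63, 4.55 to 5.67 and 3.92 to 4.59.

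**Figure D2:**
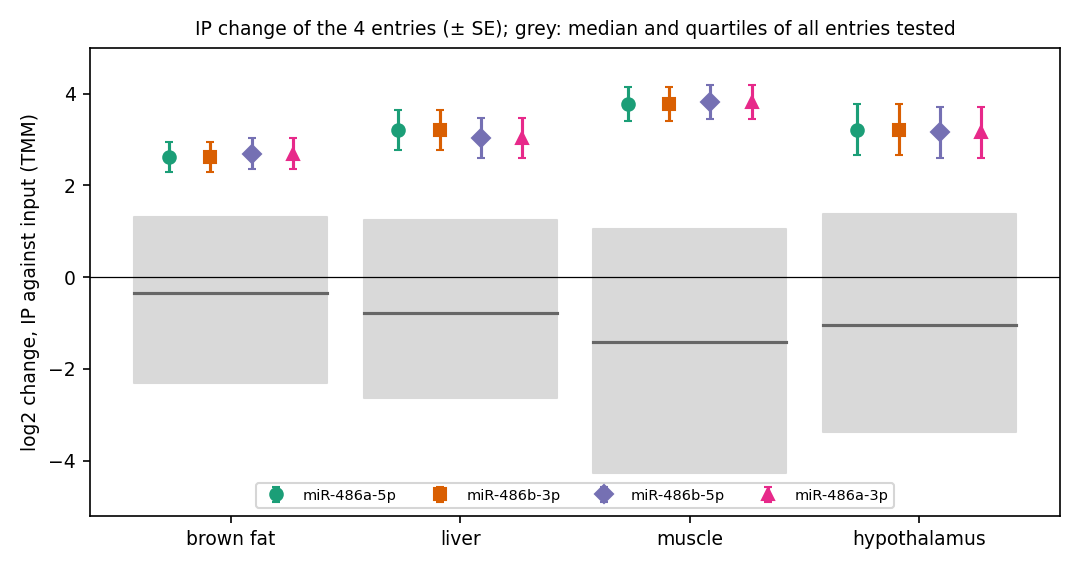
Log2 change of the 4 entries in the IP against the input (edgeR, TMM; bars are ± 1 SE), with the median (dark line) and quartiles (grey box) of all entries tested in that tissue. The 4 entries lie between 2.63 and 3.83 and above the upper quartile in every tissue, and entries of identical counts coincide.

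By place in the library, miR-486a-5p moved from ranks 51 to 83 among the entries of muscle inputs to ranks 15 to 19 in muscle IPs. In brown fat it moved from ranks 104 to 156 to ranks 53 to 72. In liver the ranks were 202 to 295 in inputs and 62 to 140 in IPs, and in hypothalamus 203 to 325 and 69 to 139. Entries with a count numbered 691 to 771 in muscle inputs and 314 to 376 in muscle IPs. The numbers were 813 to 864 and 504 to 675 in brown fat, and 631 to 656 and 182 to 404 in liver. In hypothalamus they were 597 to 1100 and 418 to 634. The part of these numbers in the ranks was not tested. The 4 entries together made up 1.21% of counts in muscle IPs on average, and 2.95% in replicate 5.

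Between tissues, the IP order was again led by muscle. Muscle IPs exceeded hypothalamus IPs by a log2 difference of 5.45 (SE 0.58, adjusted p = 6.48e-11; 69.9% of entries called), and liver minus muscle was -6.23 (SE 0.62, adjusted p = 1.45e-11; 33% called). Brown fat minus muscle was -3.51 (SE 0.53, adjusted p = 6.43e-07; 41.1% called), and every muscle IP was above every brown fat IP. Brown fat exceeded liver by 2.72 (SE 0.55, adjusted p = 8.19e-05; 45.5% called), with no overlap in CPM. That value was the highest over 20 choices of the TMM reference library (1.31 to 2.72, all called), and it was 1.68 with RLE scaling. Brown fat minus hypothalamus was 1.94 (SE 0.50, adjusted p = 0.000539; 82.3% called), but the CPM values overlapped. The brown fat minus hypothalamus call was lost with RLE scaling (0.21) and total count scaling (0.59), and without hypothalamus IP replicate 2 it was 0.61 (adjusted p = 0.177). Liver minus hypothalamus was -0.78 (SE 0.53, adjusted p = 0.194; 68.9% called), and -2.80 with total count scaling, which called it. Total count scaling kept the calls but made the distance of muscle smaller, at 2.90 above hypothalamus and -2.31 for brown fat minus muscle.

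Whether the IP change itself differed from that of brown fat was tested as an interaction. For muscle the change exceeded that of brown fat by 1.51 (SE 0.46, adjusted p = 0.0226; 21% of entries called). The call did not hold in 7 of 20 fits that left out 1 library, where the adjusted p reached 0.0678: brown fat input replicate 1, brown fat IP replicates 4 and 5, muscle input replicates 4 and 5, and muscle IP replicates 1 and 2. For liver the difference was 0.21 (SE 0.54, adjusted p = 0.861; 8.44% called). For hypothalamus it was 2.48 (SE 0.64, adjusted p = 0.00646; 34.4% called), but its sign turned in 17 of the 20 fits that left out 1 library (all but brown fat input replicate 4, brown fat IP replicate 4 and hypothalamus input replicate 3), and it was -0.26 without hypothalamus input replicate 4. No direction can be read for the hypothalamus. TMM compares each library with 1 reference library. Using each of the 20 libraries in turn as that reference moved the muscle difference from 0.37 to 2.11, with 9 of 20 called, and the hypothalamus difference from -0.92 to 2.54, with 5 of 20 called.

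**Figure D3:**
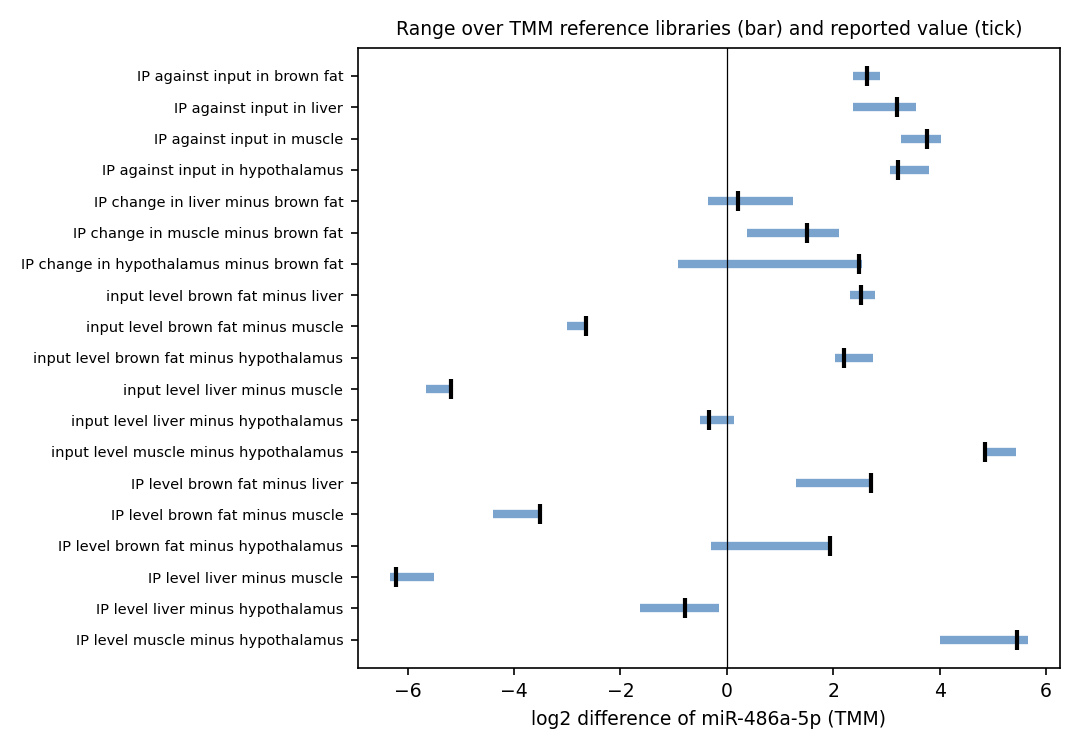
Range of the log2 difference of miR-486a-5p for 19 comparisons when each library in turn served as the TMM reference (bar), with the reported value (tick). The 4 IP changes and the comparisons with muscle keep their side of 0, and 4 bars cross it: the liver and hypothalamus changes against brown fat, the input difference of liver and hypothalamus, and the IP difference of brown fat and hypothalamus.

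The red blood cell miRNAs had another order over the tissues than miR-486. MiR-451a, a miRNA of red blood cells made without Dicer, was highest in brown fat inputs, at 47.6, 123, 128, 113 and 579 CPM, and had means of 22.8 CPM in liver and 18.3 in muscle inputs. In hypothalamus inputs it was at 19.6 CPM in replicate 4 and at 2.22 to 4.74 CPM in the other 4. The muscle inputs with the most miR-486a-5p (replicates 1 and 2) had the least miR-451a, 8.93 and 10.8 CPM. Per count of miR-451a, miR-486a-5p ran from 0.546 to 0.770 in liver inputs, 0.356 to 4.80 in brown fat, 5.22 to 21.3 in hypothalamus and 4.56 to 39.8 in muscle. The liver inputs thus kept the narrowest ratio of the 4 tissues. Of the 3 red blood cell entries tested in the inputs (miR-451a, miR-144-3p and miR-144-5p), 3 were higher in brown fat than in liver (45.9% of all entries were called there). All 3 were also higher in brown fat, liver and muscle than in hypothalamus, where 84%, 80.9% and 83.1% of all entries were called. Between brown fat and muscle and between liver and muscle 0 of 3 were called by edgeR, against 40.1% and 54.7% of all entries.

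In the IPs the red blood cell miRNAs were nearly absent. MiR-451a was listed at 0 in all 5 liver and all 5 hypothalamus IPs, which allows at most 3.12 and 3.65 CPM over the group (3 counts). For hypothalamus that limit lies within the range of the inputs, so a difference was not detectable at this depth. Its means were 0.145 CPM in muscle and 2.24 CPM in brown fat IPs. It was called lower in the IP by edgeR in brown fat (log2 change -4.98, SE 0.72, adjusted p = 7.44e-06) and in muscle, where the 5 IPs held 0.67 counts (adjusted p = 0.000227), the comparisons in which it passed the filter. MiR-144-3p and miR-144-5p passed in none of the 4 and had IP means of at most 0.524 CPM. Within libraries, the log2 ratio of miR-486a-5p to miR-451a (0.5 counts added to each) was higher in the IP by 6.86 in brown fat, 4.41 in liver, 6.64 in muscle and 3.11 in hypothalamus. Each gave p = 0.00794 in a two-sided exact permutation test, the smallest 5 against 5 can give, and 0.0106 adjusted over 8 ratios. IPs and inputs did not overlap in any of the 4. Where miR-451a is at 0, the size of this difference depends on the added count: with 0.1 counts added it was 6.66 in liver and 5.32 in hypothalamus. In muscle the 0.67 counts of miR-451a all fell in IP replicate 1, so the 6.64 depends on the added count as well. In the IPs at 0 the ratio varies with the miR-486a-5p count alone, so these tests do not by themselves show a fall of miR-451a.

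The entries most like miR-486a-5p across the inputs were muscle miRNAs. Among the 194 entries averaging 100 CPM or more, the 5 with the highest Pearson correlation of log2 CPM over the 20 inputs were miR-1b-5p (0.947), miR-1a-3p (0.946), miR-206-3p (0.936), miR-133b-3p (0.929) and miR-133a-3p (0.918). MiR-1 and miR-133 are known as regulators of muscle growth and differentiation, and miR-206 as a skeletal muscle relative of miR-1. These points share tissues, libraries and scaling, and the values are a description. MiR-1b-5p and miR-1a-3p had nearly equal correlations here and in the IPs (0.894 and 0.893), and whether they share reads was not tested. Of the 8 entries of the striated muscle list, 6 passed the filter in inputs, and 6 were higher in muscle than in liver (54.7% of all entries called) and 5 higher in muscle than in brown fat (40.1%). Brown fat inputs exceeded liver in 6 of 6 (45.9%). In the comparisons with hypothalamus, 6 of 6 were higher in muscle, 5 of 6 higher in brown fat and 4 of 6 lower in liver, with input replicate 4 included. Those counts are near the 83.1%, 84% and 80.9% of all entries called there. MiR-208a-3p and miR-208b-3p, of the heart and slow muscle, and miR-499-5p, of slow muscle, were at means of at most 0.216, 30.0 and 195.5 CPM, each highest in brown fat inputs by CPM. With TMM scaling, miR-499-5p was not called between brown fat and muscle inputs (log2 difference -0.12, adjusted p = 0.839, edgeR quasi-likelihood test).

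**Figure D4:**
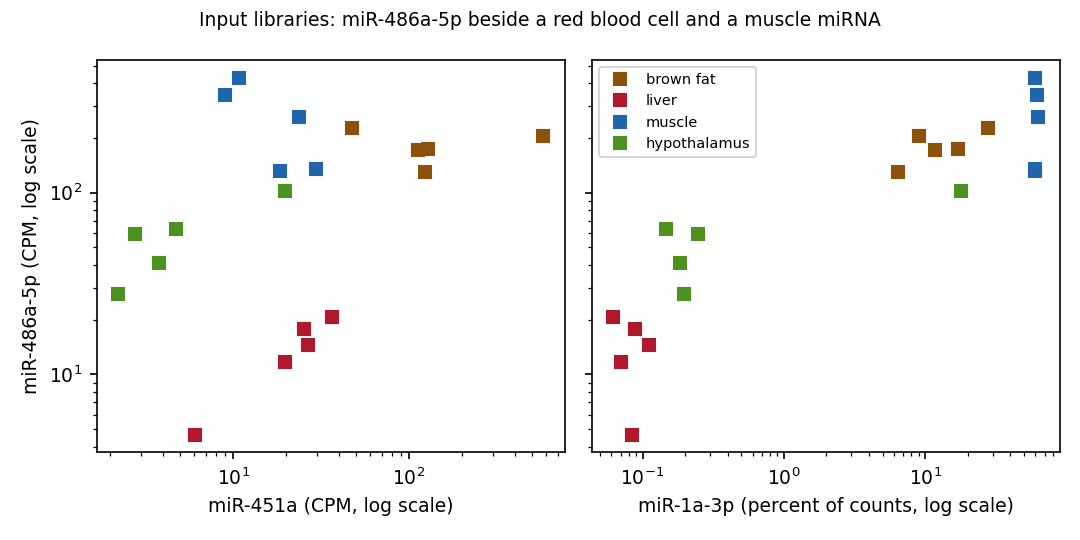
miR-486a-5p (CPM, log axis) in the 20 inputs against miR-451a (CPM, log axis, left) and against the share of miR-1a-3p (percent, log axis, right), coloured by tissue. Muscle libraries have high miR-486a-5p at 8.93 to 29.5 CPM of miR-451a, and hypothalamus replicate 4 lies apart at 17.9% miR-1a-3p and 102 CPM miR-486a-5p.

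Within tissues, miR-1a-3p took 59.8% to 63.4% of the muscle inputs, while miR-486a-5p ranged from 131 to 429 CPM there. In brown fat, input replicate 1 had the most of both, 27.99% miR-1a-3p and 228 CPM miR-486a-5p. Replicate 2 had the least of both, 6.40% and 130 CPM. Per 1000 counts of miR-1a-3p, miR-486a-5p ran from 0.220 to 0.714 in muscle inputs, 0.816 to 2.27 in brown fat, 5.57 to 33.2 in liver and 0.572 to 43.1 in hypothalamus, where the lowest value is replicate 4. Muscle and brown fat inputs did not overlap in this ratio.

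In the IP the members of the muscle list were called in both directions in muscle, brown fat and liver. Of all entries tested, 85.1% were called in muscle, 80% in brown fat, 74.5% in liver and 75.5% in hypothalamus. The counts below are to be read against these shares. In muscle, of 6 list entries tested, only miR-206-3p was higher (log2 change 3.16, SE 0.46, adjusted p = 9.89e-07) and 4 were lower: miR-133b-3p (-2.46), miR-133a-3p (-1.77), miR-133a-5p (-2.86) and miR-499-5p. MiR-499-5p averaged 52.7 CPM in muscle inputs and had 1.5 counts over the 5 muscle IPs, so no fold is given. MiR-1a-3p was at 0.90 (adjusted p = 0.132) and took 45.3% to 59.1% of muscle IP counts. In brown fat 2 of 6 were higher, miR-206-3p (2.82) and miR-1a-3p (1.28), and 4 were lower. In liver miR-206-3p (3.84) and miR-1a-3p (2.32) were called higher and miR-133a-3p lower, of 3 tested. Liver IP replicate 4 held 1.57% miR-1a-3p. The other 4 IPs held 0.0430% to 0.127% and the inputs 0.0621% to 0.111%, which overlap. The median CPM of miR-1a-3p was 862 in liver IPs and 836 in liver inputs. These levels are without TMM scaling, and the part of replicate 4 in the miR-1a-3p call was not tested. Liver miR-133a-3p had 2.50 counts over the 5 IPs, so no fold is given. In hypothalamus 0 of 3 were higher, with miR-1a-3p (-4.09) and miR-133a-3p (-6.71) called lower in fits that hold input replicate 4. MiR-133a-3p was at 8646 CPM in that library and at 42.9 to 97.2 CPM in the other 4 inputs, against 0 to 48.7 CPM in the IPs. The part of input replicate 4 in its log2 change was not tested. For miR-1a-3p, the inputs other than replicate 4 held 0.147% to 0.247% miR-1a-3p and the IPs 0.0631% to 0.301%, which overlap.

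The ratio of miR-486a-5p to miR-1a-3p within a library rose in all 4 tissues. The IP minus input difference of mean log2 ratios was 3.33 in muscle and 3.84 in hypothalamus, each with p = 0.00794 in the exact permutation test (0.0106 adjusted) and no overlap. Without input replicate 4 the hypothalamus value was 2.77 (adjusted p = 0.0212, exact permutation test). In brown fat it was 1.29 and in liver 1.43, with overlapping groups and p = 0.0397 in the exact permutation test (0.0397 adjusted). The brown fat call was lost in 7 of 10 repeats that left out 1 library, input replicates 1, 3 and 4 and IP replicates 1, 2, 3 and 5, with values down to 0.86. The liver call was lost in 6 of 10, input replicates 2, 3 and 4 and IP replicates 1, 2 and 5, with values down to 1.09. Per 1000 miR-1a-3p, miR-486a-5p ran from 1.34 to 11.5 in brown fat IPs, 2.26 to 14.5 in muscle IPs, 16.6 to 73.0 in liver IPs and 66.8 to 446 in hypothalamus IPs.

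Over the 20 IPs, the entry most like miR-486a-5p among 133 was miR-196a-5p (Pearson r 0.923), then miR-1b-5p (0.894), miR-1a-3p (0.893), miR-133a-3p (0.885) and miR-206-3p (0.870). MiR-196a-5p, a miRNA that targets Hox messenger RNAs, averaged 2194 CPM in muscle IPs and 178 CPM in muscle inputs. It was at most 3.66 CPM on average in the IPs of the other tissues, where miR-486a-5p averaged 86.4 to 529.7 CPM.

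Depth moved with the level in some IP groups. In liver, muscle and hypothalamus the shallowest IP (replicates 4, 5 and 4, at 11928, 109978 and 67819 counts) had the highest miR-486a-5p CPM of its group. In brown fat the shallowest IP (replicate 4, 210603 counts) had the lowest level and the deepest (replicate 1, 817018 counts) the highest. The part of depth in the levels was not tested.

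**Figure D5:**
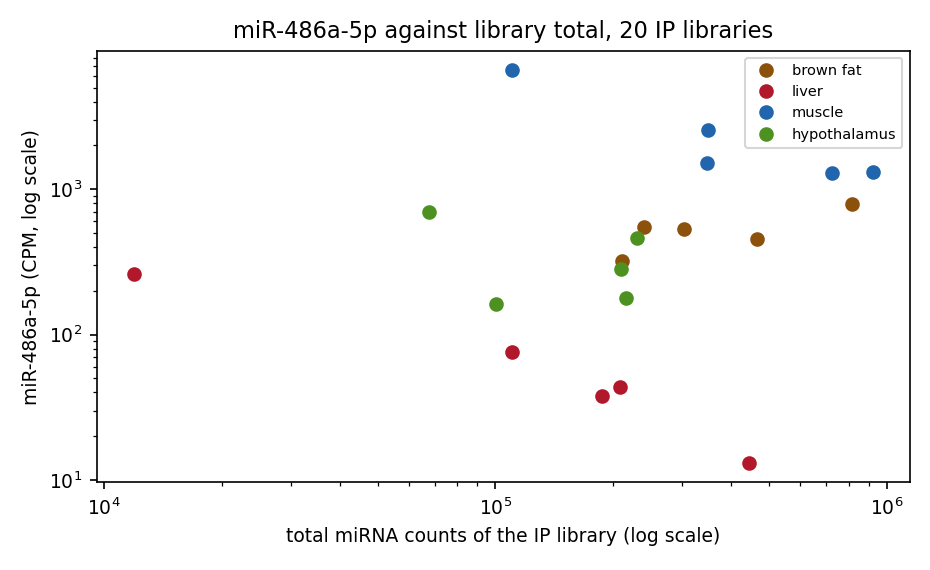
miR-486a-5p (CPM, log axis) against the total miRNA counts (log axis) of the 20 IP libraries, coloured by tissue. The muscle library at 6565 CPM and the liver library at 262 CPM are the shallowest of their groups, and in brown fat the deepest library is the highest.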

How the data were processed

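The deposited table gives expected counts by mature miRNA entry and library. Per the submitters' processing notes it was made with fastp, STAR, featureCounts and mm10, without versions or settings. Of the positive values 18.9% were whole within 0.001, and 1613 of 1894 entries had a count. Groups came from the sample titles and pools from the library names, and 0 columns lacked a sample. The mouse numbers match the last digit of the library numbers, with 0 for mouse 10. Neither the titles nor the library names state a mouse. Rounding the counts to whole numbers moved library totals by at most 0.127%.

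R 4.3.3 with edgeR 4.0.16 (filterByExpr, TMM, quasi-likelihood test, two-sided, Benjamini-Hochberg adjusted p under 0.05) was fitted on the whole table. IP against input used the 10 libraries of a tissue, and other comparisons the 20 libraries of 2 tissues or of 1 library type. The fits were tested on simulated data. Ratios within a library were tested by exact permutation (scipy 1.17.1), 252 splits. Levels are CPM of the deposited counts. Alternatives were RLE and total count scaling, 2 filters, DESeq2 1.42.0, the 4 entries summed, all 40 libraries in 1 fit, the mouse as a block, each library left out and, chosen after seeing the data, other TMM references.

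Named beside the members are the 5 entries most like miR-486a-5p in inputs and in IPs (Pearson r of TMM log2 CPM, prior count 2, mean of at least 100 CPM) and the detected red blood cell and striated muscle lists. The members, lists and rule were chosen with earlier results of these data known. Same-numbered input and IP libraries share a mouse number in 19 of 20 pairs (brown fat replicate 5 pairs mouse 8 with mouse 10). Their deviations from group means correlated at -0.02 to 0.55 (median 0.11, 10 of 19 over 0.1, 451 entries). RefSeq sequences matched 1610 of 1894 entries by name, but 0 of the 4 miR-486 entries, so no sequence of theirs is printed.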

Additional observations from a re-analysis of the deposited data

Results flagged for a closer look

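Of 16 checks of groups of 5 for a library far from the rest, 4 were met, where chance alone meets about 1 in 20 independent checks. These checks took miR-486a-5p and miR-486b-5p in each group, whose values follow each other, so they are not independent. The 4 flags fall on liver IP replicate 4 and muscle IP replicate 5, each flagged for both entries. Liver IP replicate 4 held 261.6 CPM of miR-486a-5p and 283.4 CPM of miR-486b-5p, where the next highest liver IP held 76.0 CPM of each. Its total was 11928 counts, and the value is 3.12 counts. Muscle IP replicate 5 held 6565 CPM of miR-486a-5p and 8195 CPM of miR-486b-5p, where the next highest held 2549 and 3224 CPM. It held 109978 counts, of which 722 were miR-486a-5p, and the muscle input with its mouse number held 135 CPM. The IP change of miR-486a-5p differed from that of brown fat in muscle, by 1.51 on the log2 scale, and in hypothalamus, by 2.48, by the interaction test of edgeR. The muscle difference lost its call in 7 of 20 fits that left out 1 library, and the hypothalamus difference changed sign in 17 of 20.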

How the results depend on the processing

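The 4 changes of miR-486a-5p in the IP kept their direction and call in every alternative run, at 3.57 to 4.22 in muscle, 2.86 to 3.66 in hypothalamus, 2.39 to 3.54 in liver and 2.37 to 2.94 in brown fat with 1 library left out. Of the values with 1 library left out, 262 kept direction and call, 21 lost the call and 17 changed sign, and of the other alternative values 193 kept both, 5 gained the call, 19 lost it and 5 changed sign. Causes were not tested. The IP change in liver minus brown fat fell to -0.35 with the lowest TMM reference. In muscle minus brown fat it was 1.24 without a filter, 1.45 with all 40 libraries, 0.37 with the lowest reference and 1.18 to 1.64 with 1 library left out. In hypothalamus minus brown fat it was 1.42 with RLE, 1.09 with total count, -0.68 with the 4 entries summed, 0.99 with all 40 libraries, -0.92 with the lowest reference and -1.27 to 2.58 with 1 library left out. In inputs, brown fat minus muscle was -0.51 and liver minus hypothalamus -2.02 with total count, and the latter 0.14 with the highest reference. In IPs, brown fat minus hypothalamus was 0.21 with RLE, 0.59 with total count, 0.21 with DESeq2, 0.81 with all 40 libraries, -0.30 with the lowest reference and 0.61 to 2.07 with 1 library left out. Liver minus hypothalamus was -1.47 with RLE, -2.80 with total count, -1.50 with DESeq2 and -1.63 with the lowest reference. The ratio to miR-1a-3p was 0.86 to 1.64 in brown fat and 1.09 to 1.72 in liver with 1 library left out. With the mouse as a replicate block no edgeR call on miR-486a-5p changed. For the paired ratios, an exact sign-flip test over 5 pairs (4 in brown fat) cannot go below 0.0625 (0.125), so no call is possible, and the paired values were 6.59, 4.41, 6.64 and 3.11 to miR-451a and 1.46, 1.43, 3.33 and 3.84 to miR-1a-3p (brown fat, liver, muscle, hypothalamus). Over all entries, calls of IP against input split into higher and lower as 112 and 132 in brown fat, 57 and 92 in liver and 77 and 129 in hypothalamus, and with total count as 55 and 174, 29 and 135, and 53 and 153. Without a filter the calls were 401 in place of 244 in brown fat, 235 for 149 in liver, 345 for 228 in muscle and 391 for 206 in hypothalamus. A count of calls over all entries moved by over 1.5 times in some alternative for 15 of 19 comparisons. The liver values are limited by depth, with 63 input and 33 IP counts of miR-486a-5p.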
